A study of Danio rerio with 20 samples.

Results

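A set of 7 heart genes was followed across whole zebrafish embryos exposed to 3 hedgehog pathway inhibitors: the regulator genes nkx2.5, gata5, mef2ca and shox2 and the contractile genes myh7, myl4 and tnnc1a. The 7 genes were chosen by name, with earlier results of cyclopamine against ethanol on these arrays known, and each was read from the probes whose reference transcript mapped to its symbol. They are 7 of the 14657 genes on the array and took 8 probes, 2 of them for mef2ca. All 7 were among the 11433 genes bright enough to test, myl4 through ethanol and GANT-61, in which 5 and 4 arrays were well above background. The embryos were placed in 0.1% ethanol, the vehicle control, or in cyclopamine, SANT-2 or GANT-61, each at 10 µM, soon after fertilisation, at 0.5 h, and were taken at 24 h. Each of the 4 groups had 5 independent replicates, each a pool of 100 whole embryos, and each replicate was read on 1 Agilent 1-colour array. The strain was not given in the sources used here.

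The zebrafish heart forms when cardiac progenitors from both sides of the embryo meet at the midline and build a tube, which begins to beat at about the age sampled. GATA, NK2 and MEF2 transcription factors act early in this lineage and switch on the genes of the contractile apparatus, in which myosin heavy and light chains pull on actin under the control of the troponin complex. Hedgehog signals, received through the membrane protein smoothened and carried to the nucleus by gli transcription factors, promote cardiac progenitor formation in zebrafish and are also required for slow muscle fibres in the somites. Cyclopamine and SANT-2 bind smoothened, and GANT-61 acts on gli proteins.

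A level is given as log2 of the signal of a probe over the 75th percentile of its own array, so that 0 is a signal equal to that percentile. Levels of different probes are not compared, because probes differ in how brightly they bind. All 4 groups were present on each of the 4 slides that held the arrays, and slide 2, with ethanol 3, cyclopamine 3, SANT-2 replicates 2 and 3 and GANT-61 replicate 2, was the dimmest, with a 75th percentile of 566.1 to 763.0 against 1126.2 to 2059.5 on the others. Of the heart markers, myh6, tnnt2a and tnnc1a were well above background on all 20 arrays and myl4 on 15, so the labelled genes were detected in each group. The light chain gene myl7 was not analysed here. The RNA came from whole embryos. Fewer heart cells, less RNA per heart cell and a change in other cells that express the same genes cannot be told apart. The reference gene table lists both vmhc, the ventricular heavy chain, and smyhc3, a slow muscle heavy chain, as synonyms of myh7. It also holds smyhc3 as a symbol of its own, to which no probe was matched. Whether the probe of myh7 reads 1 of these transcripts alone was not tested.

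nkx2.5, the homeobox gene that marks cardiac progenitors, was lower in cyclopamine than in ethanol by nearly the same amount on every slide. Its levels on ethanol replicates 1 to 5 were -3.34, -3.32, -3.67, -3.79 and -3.72, and on cyclopamine replicates 1 to 5 they were -3.94, -3.79, -4.24, -4.38 and -4.31. The highest cyclopamine array, replicate 2, met the lowest ethanol array, replicate 4, at -3.79, and the replicates of slide 1 were the highest in both groups. The difference, cyclopamine minus ethanol, was -0.56 ± 0.20 (SE, n = 5 per group), a level 1.48-fold lower, and within slides 1 to 4 it was -0.53, -0.57, -0.59 and -0.59. With slide as a term of the model the SE was 0.13. The 5 SANT-2 arrays stood at -3.56, -3.21, -4.00, -4.13 and -4.01 and the 5 GANT-61 arrays at -3.60, -3.33, -4.05, -4.20 and -4.01. In both groups replicates 1 and 2 were the highest and replicates 3 to 5 lay below every ethanol array. The order of the means was ethanol (-3.57 ± 0.22 SD), SANT-2 (-3.78 ± 0.39), GANT-61 (-3.84 ± 0.36) and cyclopamine (-4.13 ± 0.26), and no neighbours in that order differed by more than the wider of their SDs.

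gata5, a GATA factor gene needed for both heart muscle and endoderm, had the same mean in all 4 groups to within 0.05. Its levels were 0.68, 1.23, 1.09, 0.59 and 0.38 on the ethanol arrays and 0.74, 1.26, 1.03, 0.54 and 0.68 on the cyclopamine arrays. They were 1.03, 1.40, 1.04, 0.25 and 0.46 with SANT-2 and 0.73, 1.48, 0.66, 0.60 and 0.64 with GANT-61. All 4 groups overlapped, and slides 1 and 2, with means of 0.94 and 1.21, lay above slides 3 and 4, with means of 0.53 and 0.54. Slide held 69.6% of the variance of gata5 over the 20 arrays and group 0.35%. The difference between cyclopamine and ethanol was 0.05 ± 0.23, with a 95% interval of -0.43 to 0.54, and it was positive on 2 of the 4 slides.

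mef2ca, a MADS-box factor gene of heart, skeletal muscle and jaw skeleton, also overlapped between all groups. The ethanol arrays stood at 1.9, 1.76, 2.07, 2.25 and 1.88 and the cyclopamine arrays at 1.56, 1.73, 2.58, 1.86 and 1.45. Cyclopamine replicate 3, on slide 2, was the highest of all 20 arrays, while the other 4 cyclopamine arrays lay between 1.45 and 1.86. The SANT-2 arrays stood at 1.93, 1.49, 2.42, 2.42 and 1.61 and the GANT-61 arrays at 1.80, 2.25, 2.19, 2.28 and 2.16. The difference between cyclopamine and ethanol was -0.13 ± 0.21, with within-slide values of -0.18, 0.51, -0.39 and -0.43 on slides 1 to 4. A dimmer probe of the same gene differed by -0.22 ± 0.23, and the levels of both probes correlated with a Pearson r of 0.74 over the 20 arrays, or 0.76 after slide means were removed.

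shox2, a homeobox gene that in mouse is needed in the sinus venosus, where the pacemaker forms, and in the limb, had a lower mean in cyclopamine than in each other group. Its levels were -2.06, -2.32, -1.23, -1.97 and -1.81 with ethanol and -2.95, -2.94, -1.59, -3.13 and -2.63 with cyclopamine. Cyclopamine replicate 3 was the exception to a separation of the groups: it was brighter than 4 of the 5 ethanol arrays but dimmer than ethanol replicate 3, its partner on slide 2. The SANT-2 levels were -1.91, -1.86, -1.56, -1.75 and -1.80 and the GANT-61 levels were -1.86, -1.17, -1.70, -1.67 and -1.58, all within the range of ethanol except GANT-61 replicate 2. The difference between cyclopamine and ethanol was -0.77 ± 0.24, a 1.71-fold lower level, and -0.76, -0.37, -1.16 and -0.82 on slides 1 to 4. Cyclopamine minus SANT-2 was -1.03, 0.12, -1.38 and -0.83 on slides 1 to 4, so slide 2 went the other way. The order of the means was GANT-61 (-1.60 ± 0.26 SD), SANT-2 (-1.78 ± 0.13), ethanol (-1.88 ± 0.41) and cyclopamine (-2.65 ± 0.62). Only the step from ethanol to cyclopamine exceeded the SDs of both its groups. Group held 56.1% of the variance of shox2, the highest share among the 7 genes.

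**Figure D1:**
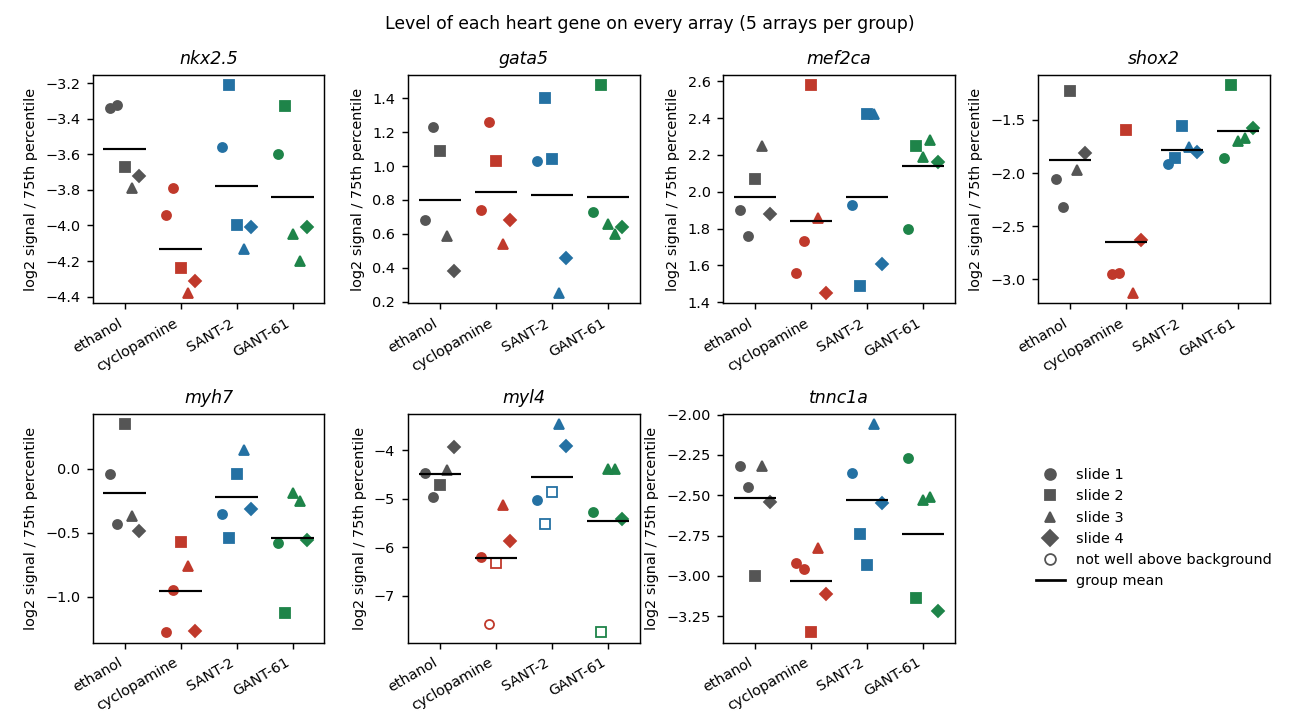
Level of each of the 7 genes on all 20 arrays, as log2 of the signal over the 75th percentile of the array; the vertical scale differs between panels, horizontal bars are group means, symbols give the slide and open symbols are signals not well above background. The cyclopamine arrays of myh7 all lie below the ethanol arrays, as do those of myl4 as read, with 2 of its 5 cyclopamine signals not well above background, while the groups of gata5 and mef2ca overlap.

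myh7, a myosin heavy chain gene whose product is the motor of the ventricle, was lower on every cyclopamine array than on any ethanol array. The ethanol levels were -0.04, -0.43, 0.35, -0.37 and -0.49 and the cyclopamine levels -1.28, -0.95, -0.57, -0.76 and -1.27. The difference was -0.77 ± 0.20, a 1.70-fold lower level, with -0.88, -0.92, -0.39 and -0.78 on slides 1 to 4. With SANT-2 the arrays stood at -0.35, -0.54, -0.04, 0.15 and -0.31, close to ethanol, and with GANT-61 at -0.58, -1.13, -0.19, -0.25 and -0.56. GANT-61 replicates 1 and 2 lay within the range of cyclopamine and the other 3 above it. The order of the means was ethanol (-0.19 ± 0.35 SD), SANT-2 (-0.22 ± 0.27), GANT-61 (-0.54 ± 0.37) and cyclopamine (-0.96 ± 0.31), with SANT-2 and GANT-61 differing by less than the wider SD and GANT-61 and cyclopamine by 0.42, more than either SD.

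myl4, an essential myosin light chain gene of the heart, known in mammals as the atrial light chain, was lower in cyclopamine than in ethanol on each slide, by an amount that rests partly on signals not well above background. Its ethanol levels were -4.48, -4.97, -4.71, -4.41 and -3.93 and its cyclopamine levels -6.20, -7.57, -6.33, -5.13 and -5.87. As read, each cyclopamine array was below each ethanol array. Cyclopamine replicates 2 and 3 were not well above background, however, and the background limit of replicate 3, -4.95, lay above ethanol replicate 2, so the groups are not shown to be apart. The probe was well above background on all 5 ethanol arrays but on 3 of 5 with cyclopamine, 3 of 5 with SANT-2 and 4 of 5 with GANT-61. The difference between cyclopamine and ethanol was -1.72 ± 0.55, a 3.30-fold lower level, with -2.16, -1.62, -0.73 and -1.93 on slides 1 to 4. When signals under the background limit were raised to the lowest signal well above background on their array, the difference was -1.05. With the background correction described further on it was -0.34, beside -0.69 for myh7 and -0.59 for shox2. That correction adds an offset, which weighs more on a probe as dim as that of myl4, so these sizes do not rank the genes. The SANT-2 levels were -5.02, -5.52, -4.87, -3.47 and -3.91 and the GANT-61 levels -5.28, -7.75, -4.39, -4.40 and -5.41. GANT-61 replicate 2, not well above background, was the dimmest of all 20 arrays, and the other GANT-61 arrays lay between -5.41 and -4.39, partly below ethanol. The order of the means was ethanol (-4.50 ± 0.39 SD), SANT-2 (-4.56 ± 0.84), GANT-61 (-5.45 ± 1.37) and cyclopamine (-6.22 ± 0.89), in which neighbours differed by less than the wider SD.

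tnnc1a, the cardiac troponin C gene, whose product binds the calcium that starts contraction, was lower in cyclopamine on each slide by a similar amount. Its levels were -2.32, -2.45, -3.00, -2.32 and -2.54 with ethanol and -2.92, -2.96, -3.35, -2.83 and -3.11 with cyclopamine. The groups overlapped through ethanol replicate 3, on slide 2, which was dimmer than cyclopamine replicates 1, 2 and 4, although it was brighter than cyclopamine replicate 3 on its own slide. The difference was -0.51 ± 0.20, a 1.42-fold lower level, with -0.56, -0.35, -0.52 and -0.57 on slides 1 to 4, and its SE with slide as a term of the model was 0.10. The SANT-2 arrays stood at -2.36, -2.74, -2.93, -2.06 and -2.55 and the GANT-61 arrays at -2.27, -3.14, -2.53, -2.51 and -3.22. The means were -2.52 ± 0.28 (SD) with ethanol, -2.53 ± 0.34 with SANT-2, -2.74 ± 0.42 with GANT-61 and -3.03 ± 0.20 with cyclopamine. Neighbours in this order differed by no more than the wider SD.

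Across the 7 genes, cyclopamine against ethanol asked how heart genes stand when the model inhibitor blocks smoothened. Because the genes were selected with this contrast known, its counts are a description and nothing is read from them. The median difference of the 7 was -0.56, against 0.03 over all genes tested. In the model without a block, 0 of the 7 were called at a limma adjusted p under 0.05, where 0.875% of all genes were called, and 5 had an unadjusted p under 0.05, as had 5.39% of all genes. With slide as a block 5 were called, nkx2.5, shox2, myh7, myl4 and tnnc1a, beside 2.19% of all genes, and with a block for the replicate number 3 were called, nkx2.5, myh7 and myl4, beside 2.27% of all genes. Every cyclopamine array lay below every ethanol array for 2 of the 7, myh7 and, with the signals not well above background taken as read, myl4, and for 1.38% of all genes. The within-slide differences were negative on all 4 slides for 5 of the 7 and for 11.2% of all genes. Slide held between 12.4% of the variance, for myh7, and 69.6%, for gata5. In the model without a block the call of shox2 depended on 1 array: without cyclopamine replicate 3 its difference was -1.04 and it was called, and without slide 2, where it was -0.87, shox2 and myh7 were called. The shares of all genes called in these settings are not given here.

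**Figure D2:**
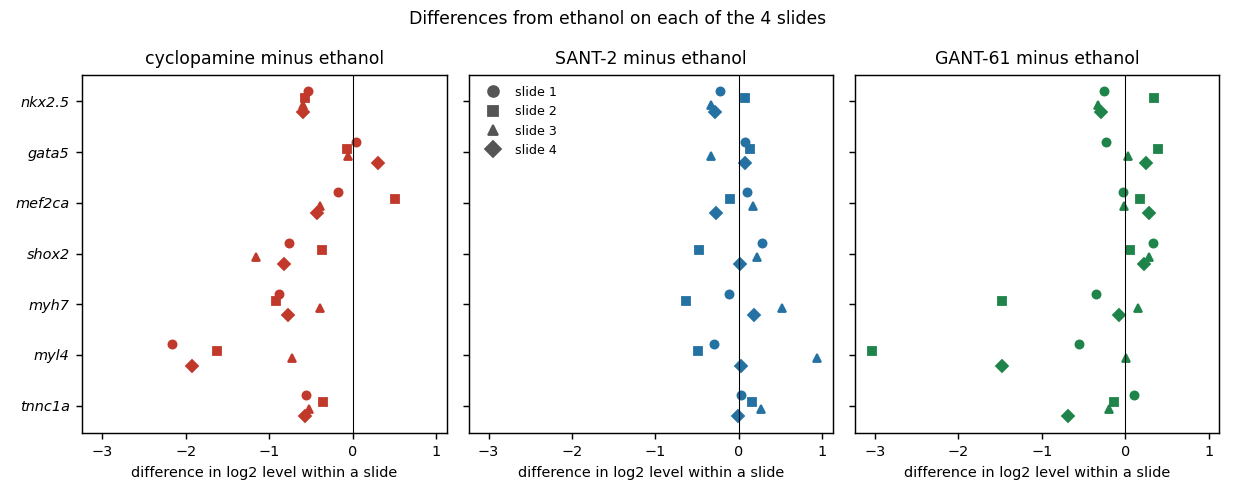
Difference in log2 level from ethanol within each of the 4 slides, for cyclopamine (left), SANT-2 (middle) and GANT-61 (right); each symbol is the mean of the treated arrays of a slide minus that of its ethanol arrays. For cyclopamine all 4 slides are negative for nkx2.5, shox2, myh7, myl4 and tnnc1a, and for GANT-61 slide 2 stands apart for myl4, at -3.04.

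The levels of the dimmer genes depended on how background was treated. With a background correction on median signals and an added offset of 50, the difference of nkx2.5 was -0.16, that of myl4 -0.34 and that of tnnc1a -0.28, each less negative by more than 1.5 times. An added offset by itself makes the log2 differences of dim signals smaller. The setting also changed the signal used and the way background was removed, and the part of each was not tested. With quantile scaling and in the authors' deposited values these genes differed by -0.59 and -0.59 (nkx2.5), -1.82 and -1.84 (myl4) and -0.51 and -0.51 (tnnc1a).

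A second smoothened inhibitor at the same dose, SANT-2, was not shown to move any of the 7 genes. The ethanol arrays are those of the contrast on which the genes were selected. None of the 7 was called by limma, where 0.0% of all genes were called without a block and 0.0% with slide as a block. At an unadjusted p under 0.05 without a block there were 0 of the 7 and 1.14% of all genes. The differences ran from -0.21 for nkx2.5 to 0.10 for shox2, with a median of 0.00 over the 7 and 0.04 over all genes. The difference of nkx2.5 was -0.21 ± 0.20 (95% interval -0.62 to 0.20; adjusted p = 1.0), with -0.23, 0.07, -0.34 and -0.29 on slides 1 to 4. That of myh7 was -0.02 ± 0.20 (-0.45 to 0.40) and that of tnnc1a 0.00 ± 0.20 (-0.42 to 0.41), both with an adjusted p of 1.0. For myl4 it was -0.06 ± 0.55 with an interval of -1.22 to 1.1, which does not separate an equal level from a 2-fold lower one. None of the 7 was lower than ethanol on all 4 slides, as 3.78% of all genes were, and none had all SANT-2 arrays below all ethanol arrays, as 0.0437% of all genes had.

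With the gli inhibitor GANT-61 the mean levels of nkx2.5, myh7, myl4 and tnnc1a were below those of ethanol, and those of gata5, mef2ca and shox2 above. None of the 7 passed without a block or with slide as a block, again with the ethanol arrays of the selecting contrast. None of the 7 was called by limma without a block, where 0.157% of all genes were called. At an unadjusted p under 0.05 there were 0 of the 7 and 6.28% of all genes. With slide as a block none was called, where 1.8% of all genes were, and 2, myl4 and tnnc1a, had an unadjusted p under 0.05, as had 17.1% of all genes. The difference of myl4 was -0.95 ± 0.55 (95% interval -2.11 to 0.21; adjusted p = 0.82) without a block and -1.20 ± 0.39 (adjusted p = 0.137) with it. It was lower on 3 of 4 slides, at -0.56, -3.04, 0.01 and -1.48, and without GANT-61 replicate 2, the array not well above background, it was -0.37. The difference of myh7 was -0.35 ± 0.20 (-0.77 to 0.08; adjusted p = 0.82), and without the same array it was -0.20. nkx2.5 differed by -0.27 ± 0.20 (adjusted p = 0.848), and was called only when arrays were weighted by their quality, at -0.49 (adjusted p = 0.0397). The share of all genes called with these weights is not given here, so nothing is read from that call. shox2 was higher than in ethanol on each slide, by 0.33, 0.06, 0.28 and 0.22, with a difference of 0.28 ± 0.24 that did not pass (adjusted p = 0.866). The share of all genes higher on all 4 slides was not computed. tnnc1a, at -0.21 ± 0.20, mef2ca, at 0.16 ± 0.21, and gata5, at 0.02 ± 0.23, did not pass either. None of the 7 was lower on all 4 slides (6.86% of all genes) or without overlap (0.315%). Of all 11433 genes tested 4512 were below ethanol with GANT-61. Of the 10 other contractile genes 5 were below ethanol (median -0.02, against 0.06 over all genes). So were 14 of 15 fast muscle genes (median -0.32) and 4 of 4 erythroid genes (-0.27), with 0 called in either list. Their summed signals, in multiples of the 75th percentile, were 123 to 288 with GANT-61 and 141 to 297 with ethanol for fast muscle, and 40.8 to 89.3 and 45.3 to 83.6 for the erythroid genes. Their part in the differences of myh7, myl4 and tnnc1a was not tested. These 2 lists had the lowest medians of the lists read. Below ethanol in the others were 7 of 15 regulators (median 0.02), 2 of 5 slow muscle genes (0.02), 0 of 5 endothelial genes (0.21) and 2 of 7 endoderm genes (0.01). So were 5 of 10 genes of the neural crest and arches (-0.0), 1 of 3 pectoral fin genes (0.08) and 3 of 5 neuronal genes (-0.05).

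**Figure D3:**
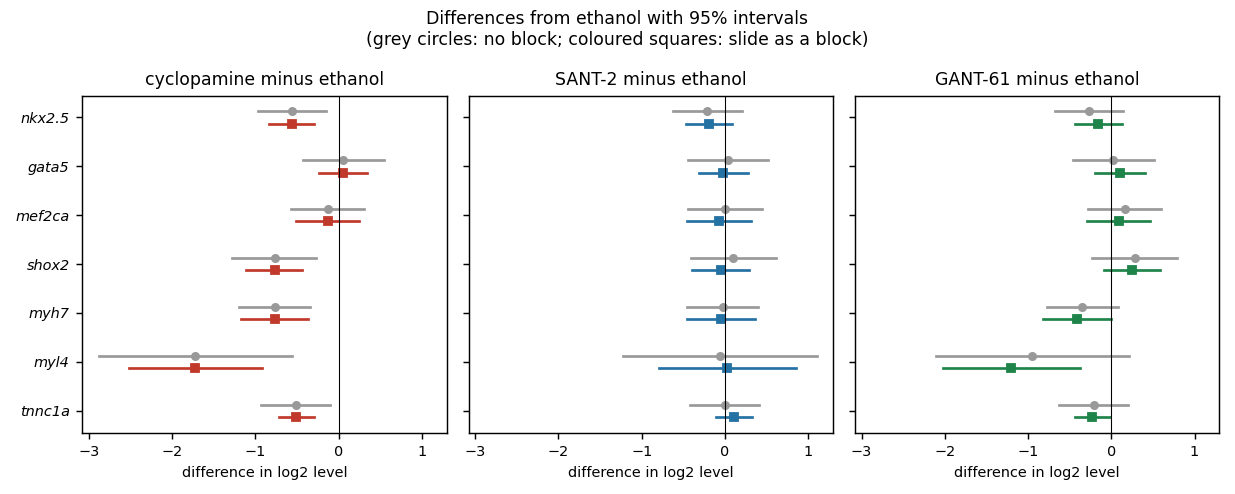
Difference in log2 level from ethanol for the 7 genes with 95% intervals from the model, for cyclopamine (left), SANT-2 (middle) and GANT-61 (right); grey circles are without a block and coloured squares with slide as a block, n = 5 arrays per group. The cyclopamine values chose the genes and are a description; all SANT-2 intervals include 0, and of the GANT-61 intervals with slide as a block those of myl4 and tnnc1a lie below it.

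SANT-2 and GANT-61 were also set against each other at the same dose and time, on 10 arrays that the selecting contrast did not use. None of the 7 passed limma's adjusted p without a block, where 0.262% of all genes were called. At an unadjusted p under 0.05 there were 0 of the 7 and 3.74% of all genes. With slide as a block none was called either, where 0.997% of all genes were, while myl4 and tnnc1a were 2 with an unadjusted p under 0.05, as had 12.4% of all genes. With a block for the replicate number none was called, and the share of all genes called was not computed. With that block 2, myh7 and myl4, had an unadjusted p under 0.05, as had 10.3% of all genes. The level of myl4 was higher with SANT-2 by 0.89 ± 0.55 (95% interval -0.27 to 2.05; adjusted p = 1.0), and by 1.23 ± 0.39 with the block (adjusted p = 0.182), on all 4 slides. Without GANT-61 replicate 2 that difference was 0.31. tnnc1a was higher with SANT-2 by 0.21 ± 0.20 (adjusted p = 1.0), or 0.34 ± 0.10 with the block (adjusted p = 0.167), with -0.09, 0.31, 0.46 and 0.67 on slides 1 to 4. myh7 was higher with SANT-2 on each slide, by 0.23, 0.84, 0.37 and 0.25, and the difference of 0.32 ± 0.20 did not pass (adjusted p = 1.0). The regulator genes differed by 0.05 (nkx2.5), 0.02 (gata5), -0.16 (mef2ca) and -0.18 (shox2), with 95% intervals that lay between -0.69 and 0.50. The level of shox2 was lower with SANT-2 on each slide, at -0.06, -0.54, -0.06 and -0.21. The share of all genes with 1 direction on all 4 slides was not computed for this comparison.

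Set against SANT-2 and GANT-61, the cyclopamine arrays are the same as in the selecting contrast, so these differences are given as values. Cyclopamine minus SANT-2 was -0.35 ± 0.20 for nkx2.5, -0.87 ± 0.24 for shox2, -0.74 ± 0.20 for myh7, -1.66 ± 0.55 for myl4 and -0.51 ± 0.20 for tnnc1a. Cyclopamine minus GANT-61 was -0.30 ± 0.20 for nkx2.5, -1.05 ± 0.24 for shox2, -0.42 ± 0.20 for myh7, -0.77 ± 0.55 for myl4 and -0.30 ± 0.20 for tnnc1a. For gata5 the 2 values were 0.02 and 0.03, and for mef2ca they were -0.14 and -0.30. The counts called by limma are a description too. Against SANT-2 they were 0 of the 7 without a block (0.752% of all genes), 3 with slide as a block (shox2, myl4 and tnnc1a, beside 1.57%) and 4 with a block for the replicate number (nkx2.5, shox2, myh7 and myl4, beside 1.78%). Against GANT-61 they were 1 without a block (shox2, beside 1.82%), 1 with slide as a block (shox2, beside 5.34%) and 2 with a block for the replicate number (nkx2.5 and shox2, beside 5.63%).

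Other heart genes were taken from 2 lists, of heart regulators and of heart contractile genes. Of the 22 regulators 15 were tested, and in cyclopamine against ethanol 0 were called by limma in either direction (median -0.13, against 0.03 over all genes). Of the 11 that are not among the 7 genes, 7 were lower and 4 higher, beside 4899 of the 11433 genes tested that were lower. None of the 11 passed with slide as a block. The largest differences were those of popdc2, a membrane protein gene of the conduction system, at -0.39 ± 0.22, and gata4, a GATA factor gene like gata5, at 0.30 ± 0.23. They were followed by tbx2b, of the atrioventricular canal, at 0.27 ± 0.13, tbx1, of the pharynx and outflow tract, at -0.25 ± 0.17, isl1a, of the venous pole and of neurons, at -0.23 ± 0.11, and fgf8a, a signal that induces cardiac progenitors, at -0.22 ± 0.16. nkx2.7, which acts beside nkx2.5, differed by -0.18 ± 0.15. Of the 11, 3 were lower on all 4 slides, popdc2, isl1a and nkx2.7, beside 11.2% of all genes, while gata4 and tbx2b were lower on none. The regulators hand2, tbx5a and mef2cb were not analysed here, and tbx20 and nppa were too dim to test. With SANT-2 and with GANT-61 against ethanol 0 of the 15 were called without a block, beside 0.0% and 0.157% of all genes. The medians were -0.07 and 0.02, and -0.1 and -0.04 over the 11 that are not among the 7 genes.

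Of the 19 contractile genes 13 were tested, with a median of -0.44 in cyclopamine against ethanol, a value that includes myh7, myl4 and tnnc1a, chosen on this contrast. Of the 10 that are not among the 7 genes, 0 were called without a block (median -0.39) and 1, actn2b, with slide as a block. actn2b, an alpha-actinin gene of the Z-disc, which anchors actin, differed by -1.58 ± 0.38, a 3.00-fold lower level (adjusted p = 0.065 without a block and 0.00189 with slide as a block). mybpc3, the myosin-binding protein C gene of the heart, differed by -1.09 ± 0.43, cmlc1, a cardiac light chain gene, by -0.49 ± 0.17, myh7l, a myosin heavy chain gene, by 0.45 ± 0.48, atp2a2a, the calcium pump gene, by -0.44 ± 0.22 and actc1a, an alpha-actin gene, by -0.41 ± 0.30. The adjusted p of these 5 lay between 0.443 and 1.0, and with a block for the replicate number mybpc3 and cmlc1 passed (both adjusted p = 0.0124). actn2b was also lower in cyclopamine than in SANT-2, by 1.97 on the log2 scale (adjusted p = 0.0121), and than in GANT-61, by 1.68 (adjusted p = 0.0242). The atrial heavy chain gene myh6 stood at the same mean in cyclopamine and ethanol, with a difference of 0.00 ± 0.42. Its level was higher with SANT-2 than with GANT-61 by 0.81, which passed with a block for the replicate number alone (adjusted p = 0.00513, against 1.0 without a block). With SANT-2 and with GANT-61 against ethanol 0 of the 13 were called without a block, beside 0.0% and 0.157% of all genes. The medians were 0.00 and -0.15 with myh7, myl4 and tnnc1a counted, which were chosen with the same ethanol arrays. Over the 10 that are not among the 7 genes they were 0.19 and -0.02, against 0.04 and 0.06 over all genes.

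**Figure D4:**
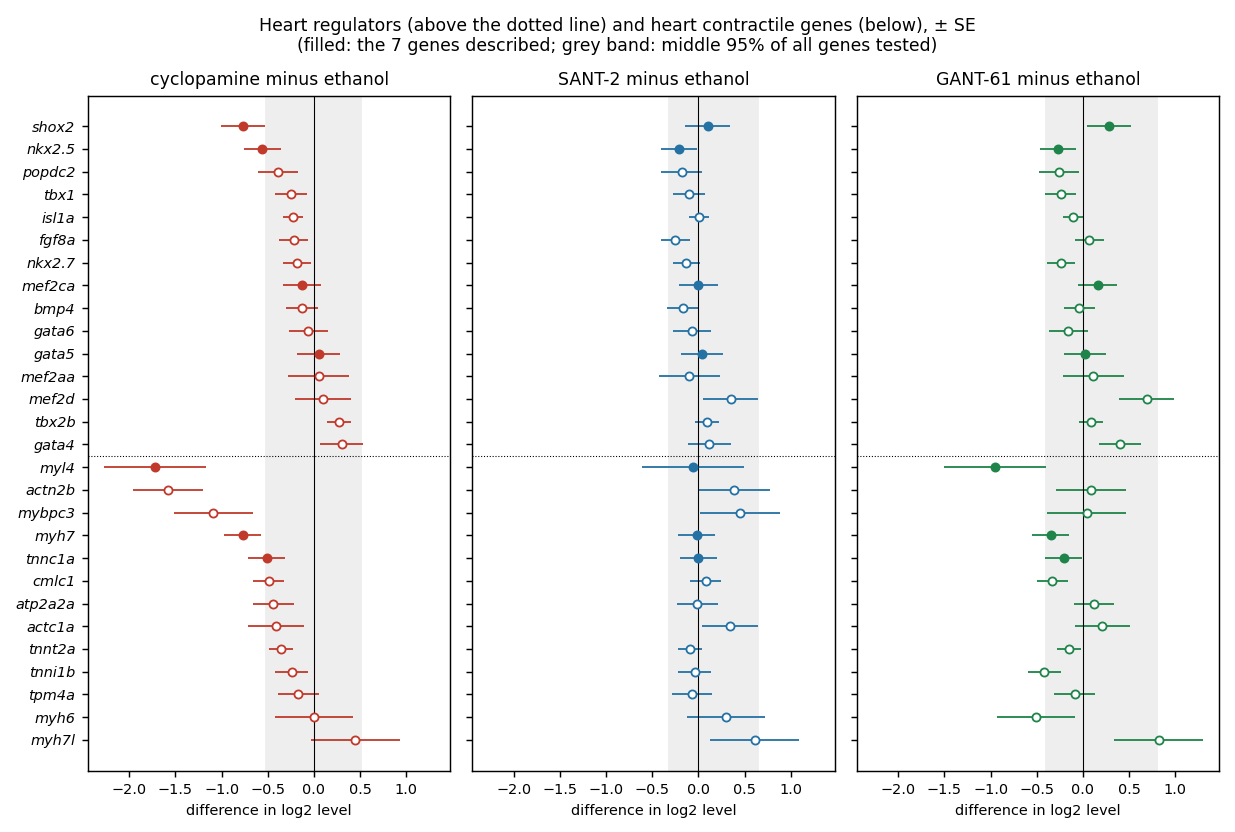
Difference in log2 level from ethanol (± SE) of the tested heart regulators, above the dotted line, and heart contractile genes, below it, for cyclopamine (left), SANT-2 (middle) and GANT-61 (right); filled points are the 7 genes described and the grey band spans the middle 95% of all 11433 genes tested. With cyclopamine the contractile genes lie below 0 except myh6, at 0.00, and myh7l, at 0.45, and myh7, myl4 and tnnc1a among them were chosen on this contrast.

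Markers of slow skeletal muscle were lower in cyclopamine than in ethanol. Of the 10 slow muscle genes listed, 5 were tested and 4 were called lower (median of the list -2.78), beside 96 of all 11433 genes tested. The called genes were the slow heavy chain gene smyhc1, the light chain genes myl10 and myl13 and the troponin C gene tnnc1b, the paralogue of tnnc1a. tnnc1b changed by -2.33 ± 0.27, a 5.04-fold fall (adjusted p = 4.08e-05), beside the -0.51 of tnnc1a. The signals of the 5 slow muscle genes, summed per array in multiples of the 75th percentile, were 128 to 201 in ethanol, 10.2 to 44.9 in cyclopamine, 143 to 205 in SANT-2 and 138 to 166 in GANT-61. Their part in the differences of the heart contractile genes, some of which skeletal muscle also expresses, was not tested. The 15 genes of the fast muscle list, which also holds general myogenic regulators, had a median of -0.16. The 1 called was such a regulator, myod1, which fell (-0.79; adjusted p = 0.00618).

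Genes of other cell types were read from 6 further lists. In cyclopamine against ethanol 0 of 5 endothelial genes (median 0.10), 0 of 4 erythroid genes (0.17), 0 of 3 pectoral fin genes (0.09) and 0 of 5 neuronal genes (0.02) were called by limma. Of 7 endoderm genes pdx1, of the pancreas, fell (-0.72; adjusted p = 0.0116), and of 10 genes of the neural crest and arches nkx3-2, of the jaw joint and sclerotome, fell (-2.71; adjusted p = 5.01e-06). edn1, a ligand gene of the arches, was higher in cyclopamine than in GANT-61 by 0.70 (adjusted p = 0.00692), and than in ethanol by 0.56 with slide as a block (adjusted p = 0.0306, against 0.0654). With the same block the endoderm genes foxa1, at -0.54, and prox1a, at -0.33, passed too (adjusted p = 0.0379 and 0.0306). In SANT-2 against ethanol, GANT-61 against ethanol and SANT-2 against GANT-61, 0 genes of any of the 10 lists were called without a block.

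The genes whose pattern over the 20 arrays was most like each of the 7 were found by Pearson r after slide means were removed. They were sought among 7816 tested genes with a symbol, a count that includes the gene itself, which was left out. The r values describe arrays that share slides and treatments and carry no test. For myl4 the nearest were cmlc1 (r = 0.92), pdlim3b (0.91) and tesca (0.90), and for tnnc1a they were tnni4b.2 (0.90), hspb7 and mrps34 (both 0.88). For myh7 they were tm6sf2b (0.91), myl4 and mest (both 0.87). For shox2 they were mnx2a (0.92), nme5 and smyhc1 (both 0.91), of which smyhc1 and mnx2a differed between cyclopamine and ethanol by -3.02 and -1.98. For nkx2.5 the nearest were ak8, tspan18a and nkx2.4a (each 0.88), for gata5 tm6sf2a (0.93), slc2a10 and zgc:162608 (both 0.92), and for mef2ca ctdsplb, dgat2 and atp2b1a (each 0.86). The 3 nearest genes of gata5 differed between cyclopamine and ethanol by 0.11, 0.19 and 0.01.

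Among the 7 genes themselves, r over the 20 arrays after slide means were removed was highest between myh7 and myl4, at 0.87. It was 0.78 between myl4 and tnnc1a and 0.64 between myh7 and tnnc1a. Pairs with a regulator gene came near the last value: 0.61 for shox2 and myh7, 0.60 for nkx2.5 and tnnc1a and 0.59 for mef2ca and shox2. The lowest was -0.58, for gata5 and myl4. These values still hold the differences between groups, among them the contrast known when the genes were chosen. When group means were removed too, r was 0.68 between myh7 and myl4, 0.29 between myl4 and tnnc1a and -0.09 between myh7 and tnnc1a. After the same removal r was -0.75 between nkx2.5 and myh7, -0.68 between nkx2.5 and myl4 and -0.74 between gata5 and myl4. It was 0.59 between nkx2.5 and gata5 and 0.72 between mef2ca and shox2. SANT-2 replicate 2 and GANT-61 replicate 2, both on slide 2, were the highest of their groups for nkx2.5 (-3.21 and -3.33) and gata5 (1.40 and 1.48). They were the lowest for myh7 (-0.54 and -1.13) and myl4 (-5.52 and -7.75, neither well above background). The correlations were not recomputed without these arrays. The correlation of nkx2.5 with myh7 was 0.23 before group means were removed.

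**Figure D5:**
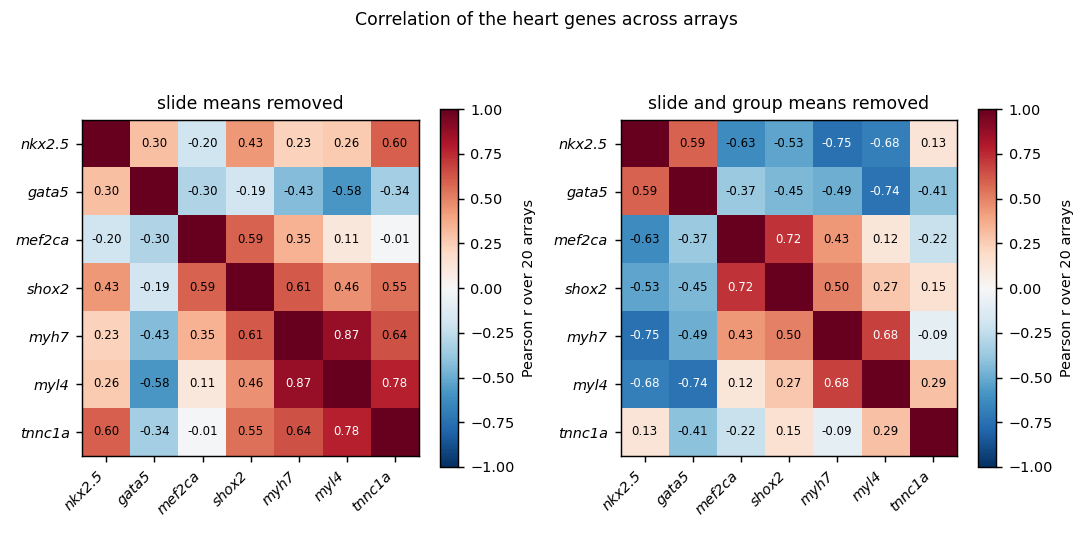
Pearson r between the 7 genes over the 20 arrays after slide means (left) and after slide and group means (right) were removed from the log2 levels; red is positive and blue negative. On the left the pairs among myh7, myl4 and tnnc1a are positive, as are pairs with regulator genes such as shox2 and myh7, at 0.61. The pair myh7 and myl4 keeps an r of 0.68 on the right, where nkx2.5 is at -0.75 with myh7.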

How the data were processed

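Per the labels' protocols, total RNA of whole zebrafish embryos was labelled with Cy3 and hybridised to 20 1-colour Agilent arrays. Per the file headers, the deposited intensity of each spot was made by Feature Extraction 10.1.1.1, which subtracts background and removes spatial trends but does not scale arrays to each other. The table of log2 values that the authors deposited served as an alternative. It correlated with log2 of the intensities (r of at least 0.9975), its column medians were 7.20 to 7.22, and its scaling is not given in the sources used here.

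The log2 intensities were set relative to the 75th percentile of each array, without 158 spots marked as outliers, and spots of a probe were averaged. Of 14694 probes, 9185 matched 1 symbol of a RefSeq gene table (assembly GRCz12tu, names only). The brightest probe stood for a gene, and 11433 of 14657 genes passed the filter (well above background on 4 or more arrays in some group). None of the 7 genes was saturated or marked as an outlier on any array.

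One limma model held all 4 groups (limma 3.58.1, R 4.3.3). P-values were two-sided and adjusted over the 11433 genes by the Benjamini-Hochberg method, with a threshold of 0.05, and the steps were tested on simulated data. Alternatives included slide and the replicate number of the titles as blocks. Deviations from group means were correlated between same-numbered arrays. The lowest r was 0.46 (cyclopamine with ethanol), 0.26 (cyclopamine with SANT-2), 0.21 (cyclopamine with GANT-61) and 0.14 (SANT-2 with GANT-61). With ethanol r ran from -0.01 to 0.75 for SANT-2 and from -0.04 to 0.6 for GANT-61. Of the 5 pairs, 3 to 5 shared a slide, which can by itself give a positive r, and arrays with different numbers were not compared. Whether the numbers pair any of the groups was therefore left undecided. Precision is limited by the 5 arrays per group.

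The 7 genes, the gene lists and the tests were chosen with earlier results of these data known. Other genes are named by rule: up to 6 of each heart list by the size of their cyclopamine difference, listed genes that were called, tnnc1b, and the 3 genes most alike each of the 7. Another listed gene is not reported here. nkx2.7, myh6, tnnt2a and the listed genes called with a block alone were named after their values were seen.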

Additional observations from a re-analysis of the deposited data

Results flagged for a closer look

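In 32 groups of 5 arrays, 1 for each probe of the 7 genes and each treatment, the highest and lowest array were compared with the others by the gap to the nearest array over the whole range of the group, and chance alone marks about 1 in 20 groups. Of these, 2 groups had an array beyond Dixon's 95% limit, both with GANT-61. For gata5, GANT-61 replicate 2 stood at 1.48, the highest of 5, with a gap of 0.75 in a range of 0.88, a ratio of 0.853. It lay on slide 2, and the other 4 arrays stood at 0.60 to 0.73. For mef2ca, GANT-61 replicate 1 stood at 1.80, the lowest of 5, with a gap of 0.36 in a range of 0.48, a ratio of 0.752, and the other 4 arrays stood at 2.16 to 2.28. It lay on slide 1. The cause was not tested.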

How the results depend on the processing

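The differences of the 7 genes and the counts called were recomputed under 17 other settings and with each of 20 arrays left out, for each compound against ethanol and for SANT-2 against GANT-61. The likeness search and the correlations were not, and the lists and cyclopamine against the other compounds only with a block. For cyclopamine against ethanol the count of the 7 genes called was 0 in the reported model and 5 with slide as a block, 3 with the replicate block, 2 with array weights (shox2 and myh7), 1 with median scaling (myh7), 2 without slide 2, and 0 to 1 with an array left out (1, shox2, without cyclopamine replicate 3). The differences of nkx2.5, shox2, myh7, myl4 and tnnc1a were negative in every setting run, from -0.157 to -0.65, -0.587 to -1.036, -0.632 to -0.868, -0.342 to -1.994 and -0.275 to -0.629, and with an array left out from -0.65 to -0.501, -1.036 to -0.61, -0.868 to -0.632, -1.994 to -1.384 and -0.629 to -0.433. For GANT-61 against ethanol the count was 0, and 1 with array weights (nkx2.5, -0.493). The shares of all genes called with array weights, with median scaling, or with a slide or an array left out are not given here. With the replicate block they were not computed for SANT-2 or GANT-61 against ethanol or for SANT-2 against GANT-61. In these 4 comparisons the replicate block changed no other call of the 7 genes. With it, at an unadjusted p under 0.05, there were 3 of the 7 for GANT-61 against ethanol (nkx2.5, myh7 and myl4, beside 18.0% of all genes). For SANT-2 there was 1 (nkx2.5, beside 7.0%). The difference of nkx2.5 with this block was -0.27 (95% interval -0.42 to -0.11) for GANT-61 and -0.21 (-0.37 to -0.05) for SANT-2. Neither passed the adjusted threshold (limma adjusted p = 0.103 and 0.697). Whether replicate numbers pair any of the groups was left undecided. A pair of choices was made after seeing the data: the correction of median signals, since the files hold no mean signal and 5690 local backgrounds were marked as outliers and set to the median of their array, and the raising of dim signals. With probes well above background on all arrays, myl4 could not be fitted.

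Differences near 0 changed sign, and the cause was not tested. For SANT-2 against ethanol these were, with slide as a block, gata5 (-0.016), mef2ca (-0.073), shox2 (-0.052), myl4 (0.028) and tnnc1a (0.111). With median scaling they were gata5 (-0.018) and mef2ca (-0.054), with quantile scaling mef2ca (-0.020), and in the authors' deposited values mef2ca (-0.030). With the background correction they were nkx2.5 (0.003), mef2ca (-0.006), myh7 (0.001), myl4 (0.168) and tnnc1a (0.057). Without slide 1 they were mef2ca (-0.081), shox2 (-0.075) and tnnc1a (0.049), without slide 2 gata5 (-0.144), myh7 (0.162), myl4 (0.311) and tnnc1a (0.084), and without slide 3 mef2ca (-0.038). For GANT-61 against ethanol gata5 changed sign with array weights (-0.020), median scaling (-0.059), without slide 2 (-0.067) and without slide 4 (-0.034). For SANT-2 against GANT-61, nkx2.5 did with slide as a block (-0.031) and without slide 3 (-0.051), and gata5 with slide as a block (-0.126), without slide 1 (-0.056) and without slide 2 (-0.076).

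With an array left out, 40 values of the 3 tested comparisons changed sign. For cyclopamine against ethanol gata5 ranged from -0.049 to 0.163, and was -0.007 without slide 4. The ranges for SANT-2 against ethanol were -0.102 to 0.185 for gata5, -0.109 to 0.124 for mef2ca, -0.01 to 0.262 for shox2, -0.117 to 0.112 for myh7, -0.332 to 0.179 for myl4 and -0.121 to 0.098 for tnnc1a. For GANT-61 against ethanol gata5 ranged from -0.142 to 0.132, and for SANT-2 against GANT-61 gata5 ranged from -0.125 to 0.18 and nkx2.5 from -0.089 to 0.182. Over all settings the adjusted p of the 7 genes was 0.0397 to 1.0 for GANT-61, 0.6284 to 1.0 for SANT-2 and 0.1675 to 1.0 between them. Signal over background limits myl4, which was not well above background on 5 of 20 arrays.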
